A study of Bos taurus with 40 samples.

Results

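The cytosine positions on the 29 numbered autosomes of cattle (Bos taurus) were taken from a bisulfite sequencing table of first polar bodies: 28585 of its 34020 positions (84.02%), chosen by chromosome name alone. The other positions lay on unplaced scaffolds (3105), the X chromosome (1645) and the mitochondrial genome (685). The labels list 8 first polar bodies of genotype Diploid, 4 with titles ending in BL and 4 in CL. The study sorted oocytes by whether they later formed a blastocyst or arrested at cleavage, and each polar body came from an oocyte matured in vitro. The sources used here give neither breed nor age of the donors. The table holds 8 numbered column sets of coverage, methylated reads and unmethylated reads. No heading names a polar body, so no set was given a fate, and each set stands on its own below. Because the sets belong to no known group, no test treats them as replicates.

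The first polar body is the small cell that the oocyte sheds at the first meiotic division, and it carries a set of the maternal chromosomes that would otherwise have stayed in the egg. Methylation of mammalian DNA sits mainly at CpG, where a cytosine is followed by a guanine and the same word is read on the opposite strand. Maintenance methylation usually leaves both strands of a CpG in the same state, and neighbouring CpGs tend to be alike. Bisulfite turns unmethylated cytosine into a base read as T and leaves methylated cytosine as C. A cytosine that escaped conversion is read as methylated as well. The methylation level is the number of methylated reads as a percent of coverage.

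Most autosomal positions rested on few reads in few sets. Every position in the table had a value in at least 1 of sets 1 to 4 and at least 1 of sets 5 to 8. Exactly 2 sets had a value at 23206 autosomal positions (81.2%), 3 sets at 3987 and 4 at 889. Values in 5 or more sets existed for 503 positions (1.76%), against 557 of the 685 mitochondrial positions (81.3%). All 8 sets covered 25 autosomal positions. In all, 64764 of 228680 possible values were present (28.3%), built from 316341 reads. The lowest coverage was 3 reads, the median was 4 in each set, and 42.0% of values rested on exactly 3. The sets differed widely in size. Sets 6 and 1 held the most autosomal positions, 14717 and 13643, and set 5 the fewest, 616. The commonest pair among positions with 2 values was sets 1 and 6 (4786 positions).

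Autosomal cytosines read as highly methylated in every set. The levels describe the positions listed, all with at least 3 reads and a value among sets 1 to 4 and among sets 5 to 8; how the choice of listed positions affects the level was not tested. Set 1 had a level of 88.0% over 67039 reads, with an exact 95% Clopper-Pearson interval of 87.7 to 88.2. Set 2 had 88.1% (87.8 to 88.4, 45497 reads) and set 3 had 88.4% (88.0 to 88.7, 31891 reads). Set 4 had 89.5% (89.1 to 89.9, 19155 reads). These levels lay within a narrow band, with set 4 above the other three by more than counting error. Set 5, with 3354 reads, had the highest level, 89.8% (88.7 to 90.8). Set 6 had the lowest, 87.8% (87.5 to 88.0, 66033 reads), followed by set 7 at 88.1% (87.7 to 88.5, 26011 reads). Set 8 had 89.1% (88.9 to 89.4, 57361 reads). The median over sets was 88.2%. The intervals cover counting error only, since the reads carry no molecular identifiers and many share a fragment. With each position weighted alike, the sets spanned 88.6% to 89.6%, so their spread was smaller.

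**Figure D1:**
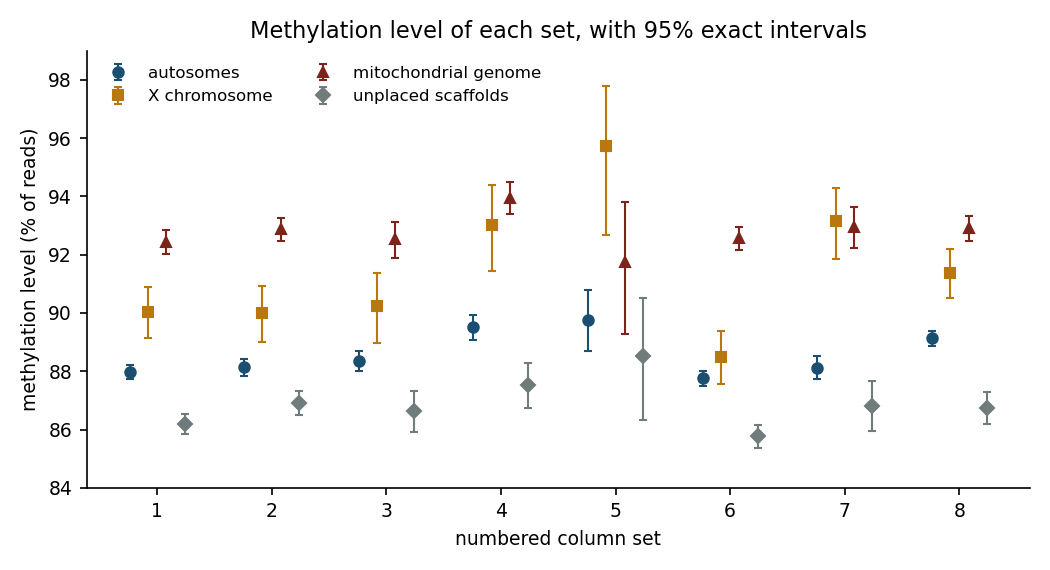
Methylation level (percent of reads) of each numbered set on the autosomes, X chromosome, mitochondrial genome and unplaced scaffolds, with exact 95% intervals for counting error. Autosomal levels sit between 87.8% and 89.8%, below the mitochondrial and above the unplaced values in all 8 sets; the vertical axis starts at 84.

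The autosomes stood between the other parts of the table. Mitochondrial DNA, generally regarded as little methylated in animals, read as 91.8% to 94.0% methylated. It lay above the autosomes in 8 of 8 sets, by a median of 4.46 points, and the intervals of the 2 parts overlapped in set 5 alone. How completely the bisulfite reaction converted unmethylated cytosines was not tested, because no unmethylated control was analysed here. The X chromosome read as 88.5% to 95.7%. Over summed reads it too lay above the autosomes in 8 of 8 sets, by 0.746 to 5.97 points, with overlapping intervals in set 6 alone. With each position weighted alike, the X chromosome lay below the autosomes in sets 1, 3 and 6. The levels were 88.8% against 89.2%, 88.0% against 88.6% and 87.3% against 89.0%. In the other sets it stayed above. Unplaced scaffolds read as 85.8% to 88.5%, below the autosomes in 8 of 8 sets by 1.21 to 2.38 points, with overlap in set 5 alone. Coverage moved with these parts: the median mitochondrial value rested on 6 to 20 reads, depending on the set. Its part in the differences was not tested.

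At single positions the values were almost all or nothing. Of the 64764 autosomal values, 55301 (85.4%) had every read methylated, 5105 (7.88%) had none and 4358 (6.73%) fell between. A value of 3 reads can take only 4 levels, and the share between rose with coverage. It was 4.27% of the 27230 values at 3 reads, 15.8% at 10 to 19 reads and 31.5% at 20 to 49 reads. At 50 or more reads it was 44.7% of 76 values. The share with every read methylated fell over the same classes from 87.2% to 47.4%, while the share with none stayed between 6.26% and 8.48%. The level over summed reads was 89.4% at 3 reads, 87.5% at 10 to 19, 83.9% at 20 to 49 and 69.7% at 50 or more. At 50 or more reads the sets were far apart. Set 1 was at 65.5%, set 2 at 54.8%, set 3 at 83.7%, set 6 at 66.4% and set 8 at 64.0%, each below its own level at 3 reads. Sets 4 and 7, with 3 such values each, were at 100%, and set 5 had none. In sets 1, 2, 3, 6 and 8, each of 4 single cytosines named below gave a value of this class. Their pooled levels were 1.61%, 100%, 0.258% and 52.6%, and their part in the fall and in the spread was not tested. Summed over sets, 189 regions of at least 3 positions and 100 reads had a median level of 92.2%, and 5 were under 50%.

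**Figure D2:**
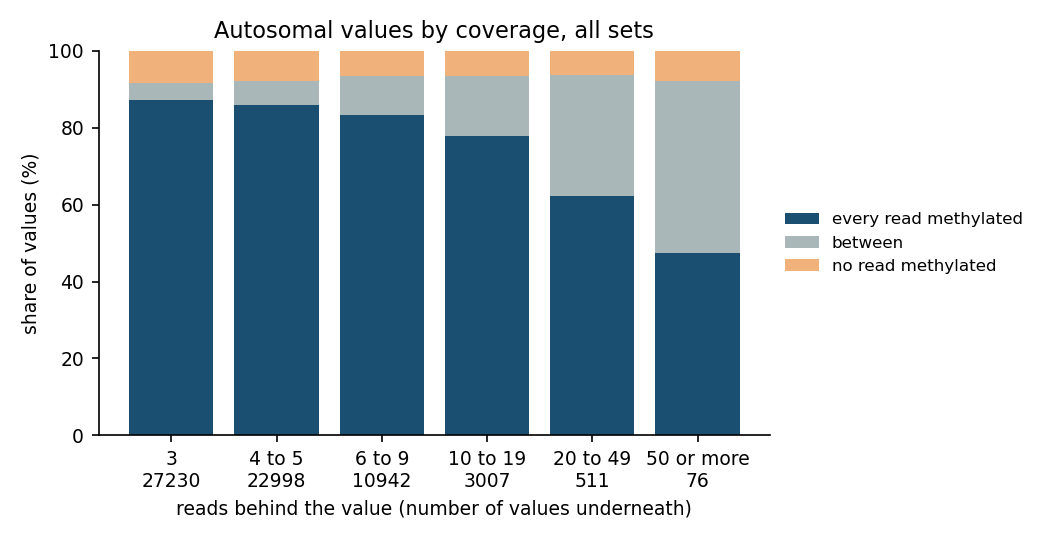
Share of autosomal values (percent) with every read methylated, some or none, by the number of reads behind the value, over all 8 sets. The share between grows from 4.27% at 3 reads to 44.7% at 50 or more, and the unmethylated share keeps to 6.26% to 8.48%.

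Summing the sets gave a pooled level per position. It was 100% at 22757 positions (79.6%), 0% at 1084 (3.79%) and under 50% at 2472 (8.65%), which are called low positions here. Low positions had a median of 9 reads, as for all autosomal positions, and 79.5% of them had values in exactly 2 sets, against 81.2% of all. Among the deepest positions low levels were more common. The share over 10% and under 50% was 4.20% at 6 to 9 summed reads, 4.42% at 10 to 19, 6.40% at 20 to 49 and 8.23% at 50 or more. The share at 0% did not rise, with 4.20% at 6 to 9 reads and 3.46% at 50 or more. Of the 231 positions with 50 or more summed reads, 87 were at 100%, 66 at 90% to under 100% and 40 at 50% to under 90%. A further 19 lay over 10% and under 50%, 11 over 0% and up to 10%, and 8 at 0%. Intermediate levels at such positions were often seen within single sets. At 56 of them, with a pooled level over 10% and under 90% and at least 2 values of 10 or more reads, 34 had every such value strictly between 0% and 100%.

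Sets gave equal levels at most positions they shared. All sets with a value gave the same level at 23869 positions (83.5%), mostly because all were at 100%. Levels ranged over the full 100 points at 1725 positions (6.03%). Over the 28 pairs of sets, which shared 61 to 7452 positions, Pearson's r across positions ran from 0.549 to 0.861 with a median of 0.619, and Spearman's rho from 0.514 to 0.765 with a median of 0.5995. Positions are not independent replicates, and pairs of sets reuse the same values, so no p is given. Per pair, 64.6% to 85.1% of shared positions had equal values (median 80.6%), and 2.08% to 6.01% were at 0% in one set and 100% in the other. Equality is common where most values are at 100%. A different kind of pair, listed neighbours over 100000 bases apart in the same set, had equal values in 72.4% of cases. Where both values had at least 10 reads, the 21 pairs with 20 or more such positions had a median r of 0.910 (0.652 to 0.972). Low values recurred at the same position. Among 47265 pairs of values at one position, at least 1 was under 50% in 7358, and in 3164 of these (43.0%) both were. With at least 10 reads in each, it was 226 of 314 (71.97%).

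Pairs within sets 1 to 4 or within sets 5 to 8 had a median r of 0.686, against 0.592 for pairs across these blocks. A position with only 2 values always has one in each block, so the 2 kinds of pair do not use the same positions. On the 995 positions with at least 2 values in each block, the medians were 0.758 within (0.696 to 0.937) and 0.766 across (0.612 to 0.874). The medians were thus close on these positions, which had more values than most. No test was made, and the other positions cannot be compared this way.

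Differences in level between sets shrank when positions were weighted alike. Over shared positions, levels over summed reads differed by a median of 3.53 points and at most 12.6 points (set 2 against set 5). Mean position levels over the same positions differed by a median of 0.5002 points and at most 2.96. On the 25 positions covered by all 8 sets, levels over summed reads ran from 69.5% in set 1 to 88.2% in set 5, and mean position levels from 77.4% to 84.8%. These 25 lay on 7 chromosomes, 10 of them on chromosome 2, and 10 were at 100% in all 8 sets.

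The positions had the spacing of CpG. A plus-strand position was followed 1 base later by a minus-strand position 1817 times, while any other offset from 5 bases before to 5 bases after occurred 0 to 36 times. No 2 positions of the same strand were 1 base apart, as can occur outside CpG. The 1817 pairs are called dyads here, and they hold 3634 positions (12.7%). The bases themselves were not read, since no genome sequence was used here. More positions lay on the plus strand, 16161 (56.5%) against 12424, and the plus share was over 50% on 29 of 29 autosomes (52.5% to 60.9%). The mitochondrial positions were split almost evenly, 343 plus and 342 minus. Levels of the strands were close, 88.5% on plus and 88.1% on minus, and plus was higher in 5 of 8 sets.

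Within a dyad, the opposite cytosines were not alike when one was unmethylated. In 3592 cases both strands of a dyad had a value in the same set, and in 2734 of them (76.1%) both were at 100%. In 0 of 3592 were both at 0%, which allows a share of up to 0.0835% if the cases are taken as independent. The 3592 cases came from 1777 dyads, so a dyad could count in several sets. At least 1 strand was under 50% in 452 cases, and the partner was then under 50% in 2 and at exactly 100% in 426 (94.2%). Pearson's r across these values was -0.0649, and between -0.0960 and -0.0418 in the 7 sets with enough dyads. With at least 10 reads on each strand, 47 of 290 cases had a strand under 50%. In 0 of those was the partner low, and in 44 it was at 100%. Summed over sets, 186 of 1817 dyads had a strand under 50%, 97 on plus and 89 on minus. Both were under 50% in 0 of the 186, which allows up to 1.61%, and in 167 (89.8%) the other strand was at 100%. The other parts of the table gave similar r: -0.0989 on the X chromosome, -0.0648 on unplaced scaffolds and -0.0463 on the mitochondrial genome.

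Single dyads show this with many reads. Coordinates here are those of the deposited table, whose genome build was not known, and for that reason no gene or feature is named. At chr13:338801 on plus, 0% of 109 reads in 6 sets were methylated (which allows up to 2.75%), and at chr13:338802 on minus 100% of 63 reads in 5 sets. Set 1 gave 36 unmethylated plus reads and 33 methylated minus reads there. At chr17:56124089 on plus, 0% of 62 reads in 7 sets were methylated (up to 4.84%), against 100% of 32 reads in 6 sets at chr17:56124090 on minus. In all, 44 dyads had 0% on one strand and 100% on the other in every value. These 2 were chosen after their values were seen, as dyads with many reads in many sets.

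Along a strand, likeness held over a few bases only. Listed positions of the same strand 2 bases apart had r = 0.764 over 662 pairs of values in the same set. Paired positions need not be neighbours in the list, and a position can enter several pairs. The r was 0.687 at 3 to 5 bases, 0.527 at 6 to 10, 0.240 at 11 to 20 and 0.00216 at 21 to 50. At 51 to 100 bases it was -0.0642 and beyond 100 bases, up to 1000, -0.0488. Opposite-strand pairs had r between -0.0700 and 0.142 in every one of these classes, the highest over only 36 pairs at 2 bases. Coverage of these pairs was compared as well. The share of same-strand pairs with identical coverage was 94.4% at 2 bases, 93.2% at 6 to 10 and 82.0% at 21 to 50. A different kind of pair served as reference: neighbours in the list, on either strand, over 100000 bases apart. These share no read, and 28.1% of them had identical coverage. The part of shared reads in the decline was not tested. At 21 to 50 bases, 2696 same-strand pairs had a member under 50% and in 119 (4.41%) both were, against 50 of 85 (58.8%) at 2 bases. For comparison, the same position in 2 different sets had r = 0.609. A low level was thus more often shared with the same base in another set than with a base 21 to 50 bases away in the same set. The likeness across sets and the unlikeness across strands were measured on values of the same table, and their cause was not tested.

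**Figure D3:**
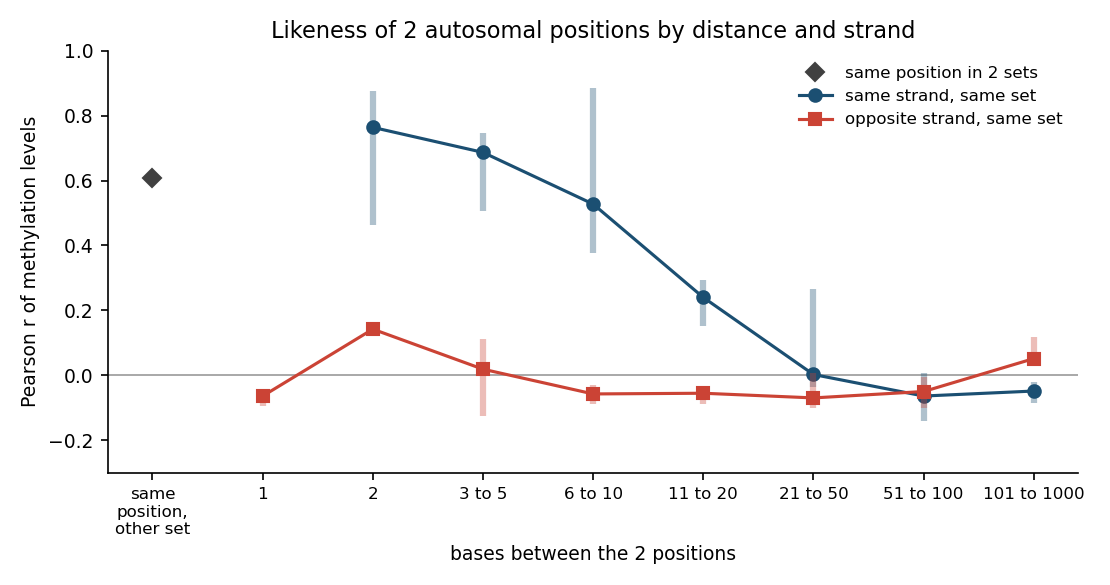
Pearson's r of methylation levels between 2 listed positions in the same set, neighbouring or not, by bases apart, for the same and the opposite strand. Pale bars give the range over sets that had enough pairs, and the diamond is the same position in 2 sets. Same-strand r falls from 0.764 at 2 bases to 0.00216 at 21 to 50, opposite-strand r stays near 0, and the diamond is at 0.609.

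The 28585 positions came from 16510 regions, taking a region as a run of positions at most 100 bases apart. Single positions made up 9901 regions (60.0%). The other 6609 held 18684 positions (65.4%), and 82.8% of them lay on a single strand. Their median span was 34 bases and the longest span 375. Of 2718 regions with at least 3 positions, 1394 (51.3%) were at 100% and 53 (1.95%) under 50%. Of 719 regions with 3 or more positions and a low one, 580 (80.7%) had exactly 1 low position, 139 had 2 or more and 3 were low throughout. Low positions were 8.65% of all positions, so a region of few positions would often hold just 1 by count alone. The share that low positions placed without regard to region would give was not computed. Over summed reads of all sets, the level was higher in regions with more positions: 86.3% for single positions, 88.4% for 2, 89.0% for 3 to 4, 90.5% for 5 to 9 and 91.2% for 10 or more. Single positions include the 4 with the most reads: 1.61% of 806, 100% of 806, 0.258% of 774 and 52.6% of 680. The level of single positions without these was not computed. Regions of 10 or more lay above single positions in 8 of 8 sets, while the level rose at every step in 4 sets. In set 5 it was 91.7% for single positions, 87.8% for 2 and 87.2% for 3 to 4, and in set 6 it was 90.4% for 5 to 9 and 89.1% for 10 or more.

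The 5 regions with the most positions held 16 to 23 each and read as 86.8% to 98.6% methylated, against 88.3% over all autosomal reads. At chr2:121567581-121567927, 23 positions were read 2516 times, the most of any region, with a level of 86.8%. Set 1 had 88.8%, set 2 86.6%, set 3 89.5%, set 4 85.6%, set 5 84.8%, set 6 85.4%, set 7 82.0% and set 8 88.9%. The sets thus lay within 7.58 points of each other, and the region's positions differed far more. Of its 13 plus and 10 minus positions, 14 were at 100%, and 3 were under 50%, each opposite a nearly full partner. At base 175 from the first position, on plus, 26.8% of 82 reads were methylated, and its minus partner was at 100% of 300 reads in all 8 sets. At base 169 on plus it was 34.8% of 69 reads, against 99.4% of 179 on minus. At base 346 on minus it was 31.6% of 291 reads, against 100% of 77 on plus. The plus level at base 175 was 0% to 42.9% over the 8 sets and the minus level at base 346 was 10.5% to 55.2%, so these bases were under 50% in 8 and in 7 of the 8 sets.

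**Figure D4:**
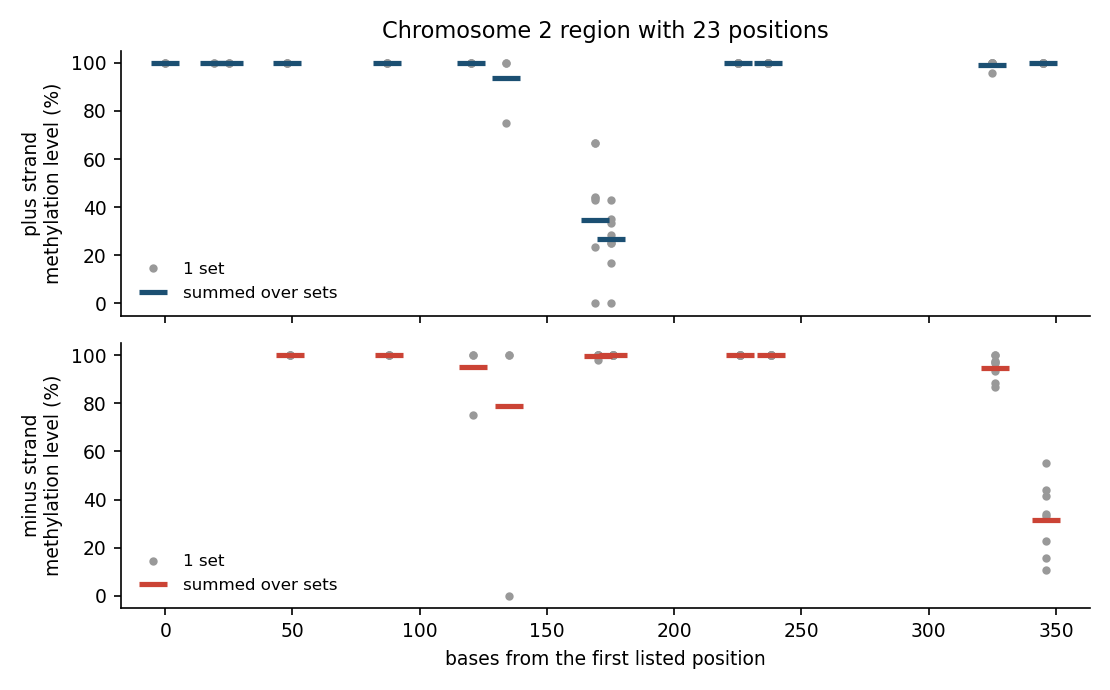
Methylation level (percent) at the 23 positions of the chromosome 2 region, by bases from its first position, on the plus strand above and the minus strand below; grey points are single sets and bars the level summed over sets. The low plus positions at bases 169 and 175 and the low minus position at base 346 lie opposite positions at 99.4% or 100%.

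Another 2 of the 5 largest regions lay within 4 kilobases of it on chromosome 2. At chr2:121571024-121571143, 23 positions had 237 reads and a level of 87.8%, with set 7 lowest at 72.7% and set 1 highest at 92.6%. At chr2:121568066-121568304, 17 positions had 597 reads and 93.5%, with 91.4% to 100% in 6 sets. The remaining 2 were chr5:56911421-56911642 with 18 positions (98.6%) and chr24:2650078-2650284 with 16 (92.0%).

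The regions with the most reads per position included single cytosines at opposite extremes. At chr1:111336399, 806 reads in 7 sets gave 1.61%, with each set between 0% and 3.20%. At chr10:83019153, also 806 reads gave 100% in all 8 sets. Chromosome 7 held a pair of positions 118 bases apart. At chr7:22625398, 774 reads gave 0.258%, and no set exceeded 1.19%. At chr7:22625280, 680 reads gave 52.6%, and its sets were 54.9%, 43.8%, 56.0%, 78.9%, 33.3%, 47.6%, 64.9% and 52.9% in order of number. The highest and the 33.3% rested on 19 and 3 reads, and the sets with at least 100 reads lay between 43.8% and 54.9%. The last of the 5 was chr6:80768979-80769038, with 2 positions, 475 reads and 89.1%.

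Low regions of at least 3 positions were few and mostly small. At chr16:80352998-80353009, 4 positions within 12 bases had 0% of 106 reads methylated in 5 sets (which allows up to 2.83%), the only region of at least 3 positions at 0%. At chr18:54817096-54817120, 3 positions had 1.22% of 82 reads in 2 sets. The next were chr9:59130839-59130852 (11.8%, 34 reads), chr9:33316-33346 (15.4%, 156 reads) and chr4:61682697-61682748 (16.7%, 18 reads). At the other end, 1394 regions tied at 100%. The 5 that come first by position all lie on chromosome 1, between bases 1640811 and 9558083, with 18 to 35 reads each. Sets differed by 100 points in 17 regions of at least 3 positions. In chr3:9804778-9804802 set 4 was at 0% and sets 1, 2, 7 and 8 at 100%. In chr2:87891195-87891205 set 3 was at 0% and sets 4 and 8 at 100%. In chr4:7219356-7219418 set 2 was at 0% and sets 1 and 5 at 100%. Summed over sets, these 3 regions were at 91.8% of 61 reads, 84.4% of 32 and 88.9% of 27. Only a few reads thus stood behind each set at 0%. Sets need not cover the same positions of a region, so such a range can compare different cytosines. The other regions named by the rule, chr3:7085548-7085587 and chr5:96407603-96407639, each also had a set between the extremes. Of the 2718 regions, 1503 had the same level in each set.

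Chromosomes differed little, and the place of the lowest pair rested on single cytosines. Levels over summed reads ran from 83.6% on chromosome 7 to 91.4% on chromosome 10, with a median of 88.8%. Chromosome 10 was followed by 19 (91.1%) and 25 (90.6%). At the low end chromosome 12 had 85.8% and chromosome 1 had 83.7%. Chromosome 7 was lowest or next to lowest in 5 of the 7 sets that ranked all 29 chromosomes, chromosome 1 in 5, and chromosome 10 was highest in 2. Without the single position with the most reads on each, chromosome 1 had 87.7% and chromosome 7 had 88.4%. With positions weighted alike they had 89.0% and 89.95%. Chromosome 12 had 86.7% without its deepest region, and 89.8% with positions weighted alike. Chromosome 10 kept 90.8% without its fully methylated deepest position and 91.5% with positions weighted alike, the highest by that measure.

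**Figure D5:**
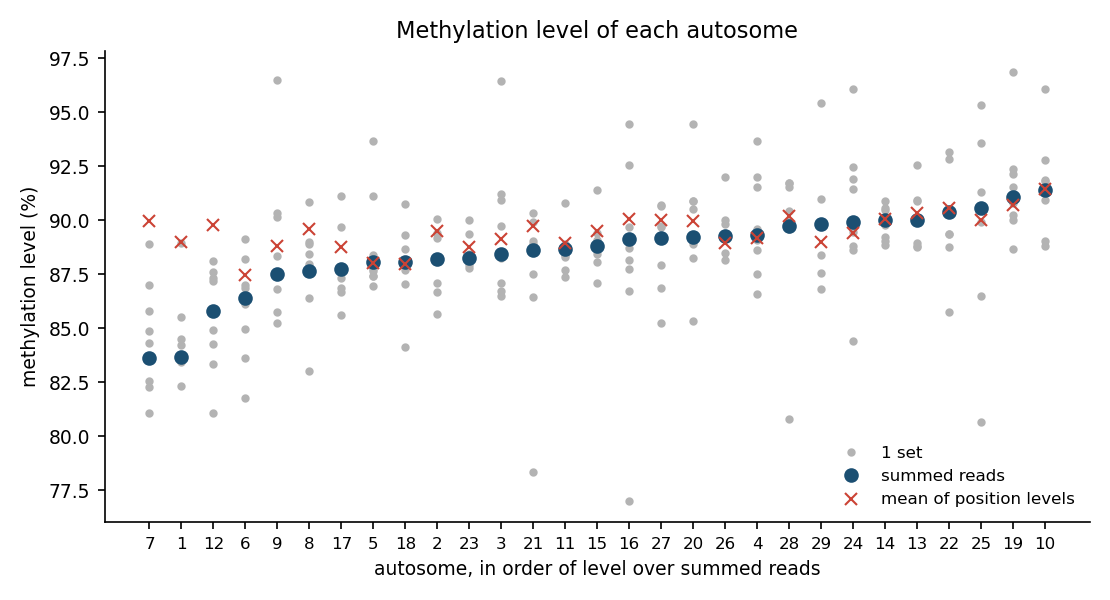
Methylation level (percent) of each autosome, ordered by the level over summed reads (blue), with the mean of position levels (red crosses) and the level in each set that had at least 20 positions there (grey). Chromosomes 7 and 1 are lowest over summed reads, at 83.6% and 83.7%, but stand at 89.95% and 89.0% by the mean of positions.

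The order of chromosomes was only loosely shared between sets. Over the 21 pairs of the 7 sets with at least 20 positions on every chromosome, Spearman's rho of the order ran from -0.113 to 0.742 with a median of 0.361. Set 5 had enough positions on 16 chromosomes and was left out. Over the same 7 sets, a chromosome's level ranged over 2.07 points (chromosome 14) to 14.7 points (chromosome 25) between sets, with a median of 5.54. The highest and lowest chromosome differed by 7.74 points over summed reads. The share of low positions per chromosome was 6.73% on chromosome 10 to 10.97% on chromosome 6, with a median of 8.48%. Along the listed span of the chromosomes, cut into 10 equal parts, levels were 86.3% to 90.1% with no steady trend. The first part had the largest share of low positions, 10.2%.

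Depth limited which positions could be called as different between sets. The chi-square test over sets needs more reads than most rows have, and 30 rows of the whole table could be tested, of which 23 were called (76.7%) at a Benjamini-Hochberg adjusted p under 0.05. The autosomes held 2 of these rows and 1 call, chr21:61863003 on minus (adjusted p = 0.011 by chi-square over 7 sets). Sets 1, 2, 3, 6, 7 and 8 read 30.6%, 38.7%, 23.8%, 60.0%, 72.7% and 54.1% there, each from 11 to 50 reads, and set 5 had 20% of 5 reads. The other, chr7:22625280, had an adjusted p of 0.0726 by the same test. Without set 6, or at an adjusted p under 0.01, the chi-square called 0 autosomal positions. Fisher's exact test, chosen after the low coverage had been seen, could be run on 34011 rows and called 203 (0.597%). Of 28584 autosomal positions it called 108 (0.378%), and 1694 had an unadjusted p under 0.05. The count was 58 without set 8 and 67 without set 3. The mitochondrial share was higher, 57 of 681 (8.37%), where positions had a median of 95 reads against 9 on the autosomes. Autosomal calls were 0 of 16793 positions with 6 to 9 summed reads, 38 of 9935 with 10 to 19, 59 of 1626 with 20 to 49 (3.63%) and 11 of 230 with 50 or more (4.78%). The first class, 58.7% of the autosomal positions tested, could not be called: its smallest possible p was 0.00794 by Fisher's exact test, and the largest unadjusted p called was 0.00029. The small share of calls therefore does not show that few positions differ. The mitochondrial calls were 6 of 148 positions with 20 to 49 reads (4.05%) and 51 of 482 with 50 or more (10.6%). The test compares these libraries' reads, not polar bodies of different fate. Both tests count each read as independent. The reads carry no molecular identifiers, so copies of the same molecule could not be told apart. Calls and p-values are therefore set against read sampling only.

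The 108 called positions lay in 100 regions on 27 chromosomes. Chromosome 2 had 10 of the calls. It also held 1415 of the 28585 autosomal positions and the most reads of any autosome, 17495. Pooled levels of the called positions ran from 13.3% to 94.7% with a median of 54.2%, and 88 had a set at 0% and another at 100%. Called positions had a median of 22 reads, and the largest unadjusted p called was 0.00029 by Fisher's exact test. At so few reads only sets far apart can reach such a p, so the wide ranges follow in part from the calling. At chr1:70187548, set 2 had 100% of 4 reads and set 7 had 0% of 26 (Fisher's exact test, adjusted p = 0.014). At chr1:70773535, set 1 had 0% of 9 reads and set 8 had 100% of 7. At chr1:143102550, set 4 had 0% of 21 reads and set 8 had 100% of 4. Set 8 was the methylated one there, while at chr1:120978218 it had 0% of 10 reads and set 1 had 100% of 6. At chr1:146334417, set 3 had 0% of 13 reads, set 4 had 100% of 3 and set 8 had 100% of 4. All 5 are on chromosome 1 because ties at 100 points were settled by position. Calls were 0.378% of the autosomal positions tested. How many regions would hold 2 of them if they were placed without regard to region was not computed. Of the 100 regions, 8 held 2 called positions and none held more. In one of these, chr11:9021010-9021074, chosen after its values were seen, 2 of 4 positions were called, and the region read 25.0% in set 4, 42.9% in set 2, 46.3% in set 1, 77.2% in set 6 and 100% in set 3.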

How the data were processed

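DNA of 8 first polar bodies was bisulfite-converted with an EpiTect kit and made into libraries with an NEBNext kit, per the labels' protocols. Bismark and methylKit appear in the submitters' processing notes beside Trim Galore and cutadapt (versions, settings and genome build not given in the sources used here). For each position and set, the authors deposited read counts of coverage, methylated and unmethylated cytosines; coverage equalled the sum of the other 2 in every row. These 24 value columns carry numbers only and could be tied to no sample, so no comparison of fate was made. The RNA count tables, whole-number counts deposited by the authors, were not used.

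Values were used as deposited, with no further filter. Levels are methylated reads as a percent of coverage, and intervals are exact 95% binomial intervals for counting error. The limit beside a share of 0 is 3 counts of the total. It takes the counts as independent, which repeated values of a dyad and copied reads are not, so the true limit can be higher. Neighbouring values were compared in the same set. A correlation over fewer than 20 pairs of values was not computed for a pair of sets. Differences between sets were to be tested with a Pearson chi-square over 8 sets, where all expected reads were at least 1 and 80% of them at least 5. Most rows have values in 2 sets, so it ran over the sets with a value. Fisher's exact test at each row was added after the coverage was seen. Both were adjusted over all rows tested in the table by Benjamini-Hochberg, at 0.05, and checked on simulated reads. 

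Named regions, at gaps of up to 100 bases, are the 5 with the most positions, the 5 with the most reads per position and, among those with at least 3 positions, the 5 of highest level, lowest level and widest range between sets. Named chromosomes are the 3 highest and the 3 lowest with at least 20 positions. Named single positions are the 5 of widest range among those called by Fisher's exact test. Ties went to the lower chromosome number and start. The members and lists were chosen with earlier results of these data known. Python 3.11.15, numpy 2.4.6, pandas 2.3.3, scipy 1.17.1, matplotlib 3.10.9 and R 4.3.3 were used. Alternatives changed the coverage minimum, weighting, region gap, test, threshold and the sets included.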

Additional observations from a re-analysis of the deposited data

How the results depend on the processing

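The median autosomal level over sets, 88.2%, was 80.6% with at least 20 reads per value (587 values) and 66.4% with at least 50 (76 values). It was 88.7% without positions above the 99th percentile of coverage, 89.1% with positions weighted alike, 87.2% with 1 position per region, 88.5% without chromosome 1 and 88.8% without the 4 single positions with the most reads. It was 88.3% without the region with the most reads. Without chromosome 1, 6 of 8 sets stayed inside their own intervals, and without the region with the most reads 8 of 8. The median r between sets, 0.619, was 0.972 with at least 20 reads per value (9 pairs). It was -0.132 among positions with a pooled level of 10% to 90%; with 2 values each, such positions mostly hold 1 high and 1 low value by construction. The share of positions in regions of 2 or more, 65.4%, was 58.7% at a gap of 50 bases and 74.5% at 1000. The 7.74 points between chromosomes were 4.005 with positions weighted alike, 4.63 without each chromosome's deepest region and 5.27 without the 4 single positions with the most reads. The r of the strands of a CpG, -0.0649, was -0.126 with at least 10 reads per value. 

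The chi-square called 1 autosomal position. It called 0 at an adjusted p under 0.01 and 3 with at least 20 reads per value. When expected reads of 1 sufficed, it called 1723 of 2440 autosomal positions tested, among 2950 rows tested in the table. That setting admits only positions with both methylated and unmethylated reads in the sum. Single values were almost all or nothing, so it favours positions whose sets already disagree. It also drops the demand for 5 expected reads, and the chi-square p is less reliable at so few. Its count therefore does not show how many positions differ. The count by Fisher's exact test was 108. Without each set in turn the chi-square called 0 (without set 6) to 4 (without set 2). Fisher's exact test called 33 at an adjusted p under 0.01 and 25 of 405 with at least 10 reads per value. Without each set in turn it called 58 (without set 8) to 108 (without set 6), and 67 without set 3. No autosomal row could be tested with all expected reads at 5 or more. Settings chosen after seeing the data were Fisher's exact test and its variants, the removal of the 4 single positions and the 10-read minimum for strands. No paired analysis was possible because the numbered columns carry no sample name.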

Other observations

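Among regions with at least 3 positions, closely spaced cytosines read higher than widely spaced ones over summed reads. Levels over summed reads were 92.2% where the mean spacing was under 5 bases (97 regions) and 92.5% at 5 to under 10 bases (313 regions). They were 89.9% at 10 to under 20, 89.0% at 20 to under 40 and 87.6% at 40 or more (326 regions). Regions under 50% were 1.03% to 2.76% of each class. The class under 5 bases lay above the class of 40 or more in 7 of 8 sets. Set 5 was the exception, at 31.0% under 5 bases, from 7 values, against 82.8%. The spacing was compared after the values had been seen, and no test was made.

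Several of the 25 positions that all 8 sets covered lay near the first base of a chromosome in the deposited coordinates. On chromosome 20, 6 of them fell between bases 102263 and 115459, with pooled levels of 83.8% to 100%. On chromosome 13, positions 330631 and 330643 had 100% of 152 reads and 95.3% of 192. On chromosome 28, position 490797 had 78.2% of 55 reads, with sets from 0% to 100%, and position 506731 had 97.6% of 126. The dyad that starts at chr13:338801, with 0% on plus and 100% on minus, lies within 9 kilobases of them. Chromosome 12 had an unmethylated position among the 25, at base 51872470, where 0.457% of 219 reads were methylated and no set exceeded 3.85%. These were picked after their values were seen.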
